A study of Mus musculus with 18 samples.

Results

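Genes of the cell cycle and of mitosis were measured in the liver of 18 male mice. The list held 39 genes: 3 cyclins of G1, 12 genes of DNA replication and 24 genes of mitosis. A member was taken from the probe sets that carry its symbol and no other, and where there were several, the brightest on average stood for the gene. This gave 38 of the 39 genes a probe set, out of 18193 genes that had one. Ccnb1, the cyclin B that partners Cdk1, had no probe set with that symbol alone in the annotation used and has no value here. The mice were C57BL/6J in the growth protocol (spelled C56BL/6J in the strain field), 5 weeks old when feeding began, and kept 3 to a cage with 12 mice on each diet. All ate AIN93G, a purified rodent diet, for 20 weeks. The 3 groups were AIN93G alone (control), AIN93G with 0.05% quercetin and AIN93G with 1% quercetin, a plant flavonol. RNA of 6 mice per diet was hybridised, each mouse on its own array, so that the replicates are separate animals and the spread between them is that between mice. The labels used do not tie mice to cages, and cage could not be a term in the model.

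Each level below is log2 of the deposited intensity after 16 was added, a scale on which an intensity of 0 reads 4. Differences are log2 differences ± standard error (SE) from a limma model of 3 diet means, and the addition of 16 makes them smaller than the true change in dim genes. The brightness of a probe set also depends on its probes, so levels are compared between mice and not between genes. The tested genes' median differed between arrays by up to 0.53, with diet means of 7.01 ± 0.13 in controls, 7.0 ± 0.19 at 0.05% and 6.95 ± 0.17 at 1% (SD, n = 6). Values were therefore also read after a shift that gave every array the same median. Markers of hepatocytes were bright on every array. Of 15, 13 had a probe set with that symbol alone, all past the filter on dim genes, and their mean after this shift lay between 12.2 and 12.8.

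In a resting adult liver few hepatocytes divide, and the machinery of division is largely silent until injury or partial hepatectomy calls the cells back into the cycle. Cyclin D and cyclin E with their kinases carry a cell through G1, and E2F factors then switch on the genes that license and copy DNA. Genes of mitosis are switched on later, in G2, by B-MYB and FOXM1 acting with the MuvB core complex, which binds a short element called the CHR. NF-Y, which binds CCAAT boxes, takes part in the same promoters. The transcripts of mitosis are thus short-lived marks of cells in G2 and M, whereas many replication genes are also read in cells that are not dividing.

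RefSeq windows (assembly GRCm38.p6) that run from 250 bases before to 50 bases after the start of transcription were found for 30 of the 39 members. Stretches of 120 bases that end just before the start are printed for 3 mitosis genes that moved together between mice and for 2 replication genes. These are examples picked by hand, and the shares over all members with a window follow below. Capitals mark the letters of the CHR, which are TTTGAA. They also mark the CCAAT box. E2F sites are marked where they read TTCCCGC on either strand. A further form of the E2F site was searched as TTGGCGC in the same way. Each motif was sought on both strands, so that it can appear as its reverse complement, and a reversed CCAAT box can share bases with the further E2F form. The strand given is that of the gene.
Cdc20, chr4:118437344-118437463, minus strand: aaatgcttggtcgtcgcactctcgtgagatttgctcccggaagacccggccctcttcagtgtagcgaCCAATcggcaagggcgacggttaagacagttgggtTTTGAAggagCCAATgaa
Cdk1, chr10:69352913-69353032, minus strand: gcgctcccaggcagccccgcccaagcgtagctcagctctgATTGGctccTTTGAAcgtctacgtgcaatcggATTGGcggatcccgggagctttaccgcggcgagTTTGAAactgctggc
Top2a, chr11:99024190-99024309, minus strand: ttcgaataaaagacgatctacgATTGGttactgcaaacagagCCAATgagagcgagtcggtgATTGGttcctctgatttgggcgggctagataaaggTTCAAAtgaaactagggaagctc
Mcm6, chr1:128359706-128359825, minus strand: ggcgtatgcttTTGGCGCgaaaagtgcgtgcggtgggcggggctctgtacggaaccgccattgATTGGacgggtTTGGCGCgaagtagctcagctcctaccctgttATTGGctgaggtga
Rrm1, chr7:102441575-102441694, plus strand: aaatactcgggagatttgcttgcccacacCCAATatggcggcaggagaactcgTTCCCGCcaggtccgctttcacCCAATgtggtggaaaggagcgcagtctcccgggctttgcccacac

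The CHR letters stood in the windows of 14 of 19 mitosis genes (73.7%) and of 1 of 10 replication genes (10%), against 18.1% of the windows of 27025 genes. Between 30 bases before the start and 50 after it, a range chosen after the hits were seen, they stood in 13 of the 19 mitosis genes (68.4%), in 0 of the 10 replication genes and in 3.79% of all genes. Birc5, Bub1, Nusap1, Cenpe and Ccnb1 were the mitosis genes whose window lacked it. The CCAAT box was common in both classes, in 17 of 19 mitosis genes (89.5%) and 8 of 10 replication genes (80.0%), against 37.9% of all genes. The E2F letters showed the opposite split, with 6 of 10 replication genes (60%), 3 of 19 mitosis genes (15.8%) and 6.93% of all genes. The 3 mitosis genes were Ccnb1, Cdk1 and Mki67, and the site of Cdk1 lies outside its printed stretch. Mcm2, Pcna, Rrm2 and Tyms were the replication genes without E2F letters, and Mcm2 was the replication gene with the CHR letters. A match describes the letters of these windows and shows neither a bound site nor a cause.

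Many of the mitosis genes lay close to the background of the array. As a gauge of background, 18 genes chosen as silent in adult male liver, such as those of lens, retina, muscle and germ cells, had means between 4.13 and 5.11. The highest was Gfap (5.11), which stellate cells of the liver can express, and the next was Xist (5.00). Aurka (5.05), Tpx2 (5.03) and Foxm1 (5.02) lay between Xist and Gfap, and Prc1 (5.11) just above Gfap. Of the measured members, 23 lay above the mean of Gfap and 15 at or below it. Only 10 of the 23 measured mitosis genes were above it, namely Ccna2, Ccnb2, Cdk1, Birc5, Cdca8, Cdc20, Cdca3, Prc1, Top2a and Mki67. Of the 12 replication genes, 10 were above it, all but Cdc6 and Tyms. The filter on dim genes stood lower, at 4.69, the 40th percentile of all probe sets, and left 12885 genes for the test.

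By that filter 31 members were tested: 18 of 24 mitosis genes, 10 of 12 replication genes and all 3 G1 cyclins. Those below it were Cdc6 (4.32), which loads the MCM helicase, Tyms (4.37), the thymidylate synthase, Aurkb (4.57), the kinase of the chromosomal passenger complex, and Plk1 (4.64), a kinase of mitotic entry and exit. Kif23 (4.66), a kinesin of the midzone, Bub1 (4.30), a checkpoint kinase, and Cenpe (4.30), a kinetochore kinesin, completed them. Plk1 and Kif23 were the members just outside the filter, and Bub1b (4.69) and Kif20a (4.72) those just inside it. A member can pass through the mice in which it is high, so counts over the 31 describe those members and not the whole list.

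**Figure D1:**
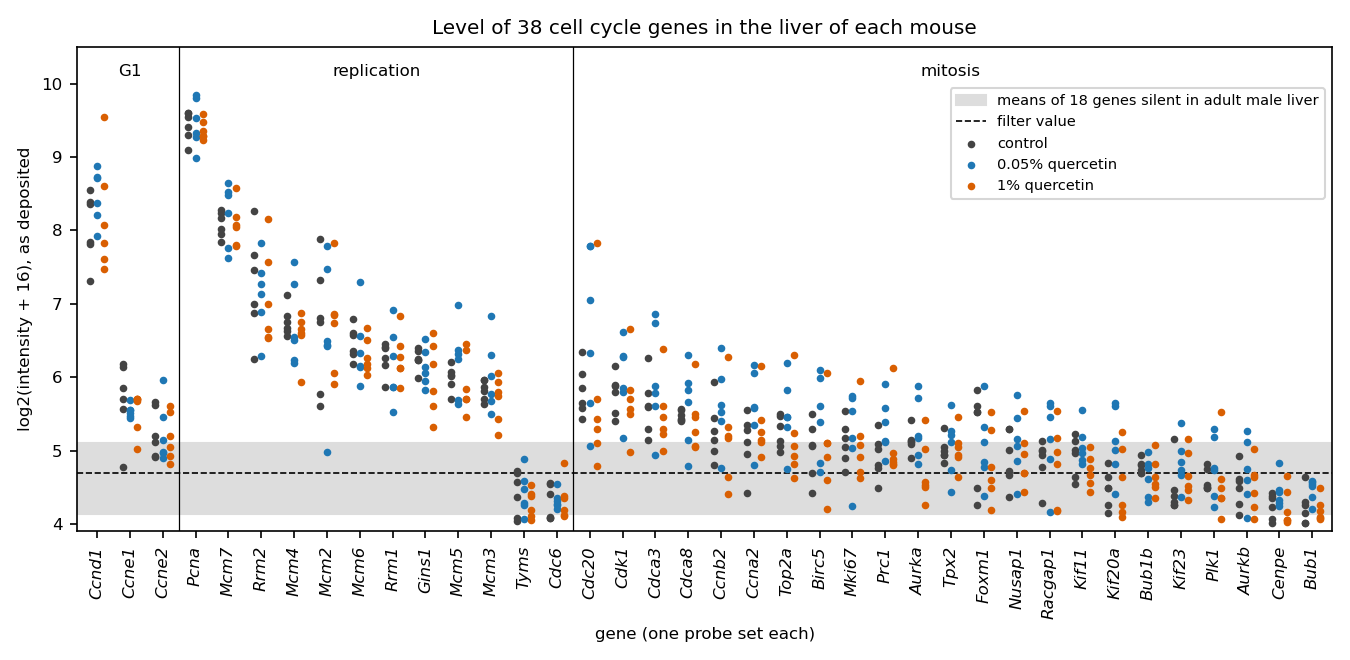
Each dot is the level of a gene in 1 mouse, log2(intensity + 16) as deposited, for the 38 measured members ordered by class and brightness and coloured by diet, with the filter value of 4.69 as a dashed line and the range of the means of 18 silent genes (4.13 to 5.11) in grey. Pcna and Mcm7 sit far above the grey band in every mouse, while 13 mitosis genes have means within it. The top of the band is the mean of Gfap.

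No member passed in any comparison of diets. The limma fit called 0 of 12885 genes, and so 0% of them, in each comparison at an adjusted p under 0.05. At an unadjusted p under 0.05 715 genes (5.55%) stood out between 1% and control, 394 (3.06%) between 0.05% and control and 708 (5.49%) between the doses. The members at that unadjusted level were 1 of 31, 2 of 31 and 3 of 31 in the same order. Among the members the lowest adjusted p was 0.889, 1.00 and 0.782, respectively. No member separated the mice of a pair of diets without overlap, against 0.155%, 0.101% and 0.341% of all genes tested.

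The G1 cyclins, which carry the cell toward S phase, overlapped between the 3 diets. Ccnd1 encodes cyclin D1, the partner of CDK4 and CDK6. It lay between 7.31 and 8.56 in controls (median 8.10), between 7.93 and 8.88 at 0.05% (median 8.55) and between 7.48 and 9.55 at 1% (median 7.95). The highest value of all was that of 1% replicate 4, while the other 1% mice lay within the range of the controls or just above it. Its difference for 0.05% against control was 0.43 ± 0.28 on the chosen probe set, and 0.64 and 0.61 on its other probe sets past the filter, and it did not pass on the chosen one (adjusted p = 1.00).

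Ccne1, cyclin E1, ranged from 4.78 to 6.18 in controls (median 5.78), from 5.44 to 5.69 at 0.05% (median 5.53) and from 5.02 to 5.70 at 1% (median 5.69). For 1% against control its difference was -0.18 ± 0.19 (adjusted p = 0.947), with all 6 mice below the control mean and within the control range. Without control replicate 3, the lowest control, the difference was -0.37. Ccne2, cyclin E2, measured 5.24 ± 0.33 in controls, 5.23 ± 0.41 at 0.05% and 5.19 ± 0.32 at 1% (SD, n = 6), with overlapping ranges.

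None of the replication genes passed, and their differences between diets were small. Differences between the doses are given as 1% minus 0.05%. Of the 10 tested, 2 were higher and 8 lower for 1% against control (median -0.10), where 35.2% of all genes tested were higher and 64.8% lower (median -0.06). For 0.05% against control 4 were higher and 6 lower (median -0.06), against 45.5% and 54.5% of all genes (median -0.01). Between the doses 2 were higher and 8 lower (median -0.11), against 37.4% and 62.6% of all genes (median -0.05). None of the 10 had an unadjusted p under 0.05 in any comparison, and their differences lay between -0.32 and 0.22.

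Pcna, the sliding clamp of the DNA polymerases that also serves in repair, was steady. It ranged from 9.10 to 9.60 in controls (median 9.48), from 8.99 to 9.84 at 0.05% (median 9.43) and from 9.24 to 9.59 at 1% (median 9.32). The MCM proteins form the replicative helicase. Mcm6 lay between 6.17 and 6.79 in controls (median 6.47), between 5.87 and 7.30 at 0.05% (median 6.24) and between 6.04 and 6.67 at 1% (median 6.22). Its top value was that of 0.05% replicate 4, which stood clear of the other 17 mice.

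Mcm2 varied more between mice of 1 diet than between diets. It ranged from 5.60 to 7.88 in controls (median 6.78), from 4.98 to 7.79 at 0.05% (median 6.47) and from 5.91 to 7.83 at 1% (median 6.79). Each diet thus held mice near the top and mice near the bottom of the range. On its other probe set past the filter the values ran only from 4.77 to 5.88, and the difference for 1% against control was -0.24, compared with 0.01 ± 0.42 on the chosen one.

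Rrm2 encodes the regulated subunit of ribonucleotide reductase, which supplies deoxynucleotides. It lay between 6.25 and 8.26 in controls (median 7.23), between 6.29 and 7.83 at 0.05% (median 7.20) and between 6.53 and 8.15 at 1% (median 6.82). The mice with the most Rrm2, control replicate 2 and 1% replicate 1, were on different diets. Gins1, a subunit of the GINS complex of the replication fork, had the smallest p of the replication genes for 1% against control. It measured 5.99 to 6.40 in controls (median 6.24), 5.83 to 6.52 at 0.05% (median 6.10) and 5.32 to 6.60 at 1% (median 5.99). The difference of -0.26 ± 0.18 did not pass (adjusted p = 0.941), with 4 of 6 mice below the control mean. It was -0.12 without 1% replicate 1 and -0.38 without 1% replicate 5.

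The mitosis genes had larger differences, mostly in the comparisons that involve the 0.05% diet. For 0.05% against control 16 of the 18 tested were higher and 2 lower (median 0.24), where 45.5% of all genes tested were higher. Between the doses 1 was higher and 17 were lower (median -0.31), and these comparisons share the 0.05% mice. For 1% against control 5 were higher and 13 lower (median -0.07), close to the median of all genes. After the median shift the counts were 16 and 2, 2 and 16, and 8 and 10, with medians of 0.24, -0.27 and -0.01, where 46.1%, 50.2% and 48.3% of all genes were higher and 53.9%, 49.8% and 51.7% lower. None of these genes passed. Without 0.05% replicate 4 the counts were 14 higher and 4 lower for 0.05% against control (median 0.17) and 2 higher and 16 lower between the doses (median -0.22). For 1% against control the direction turned with single mice: 10 were higher and 8 lower without 1% replicate 1 or without 1% replicate 5, and 1 was higher and 17 lower without 1% replicate 4. Over all 31 members the median for 0.05% against control was 0.15, and 0.04 without 0.05% replicate 4. Between the doses it was -0.24, and -0.08 without the same mouse.

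**Figure D2:**
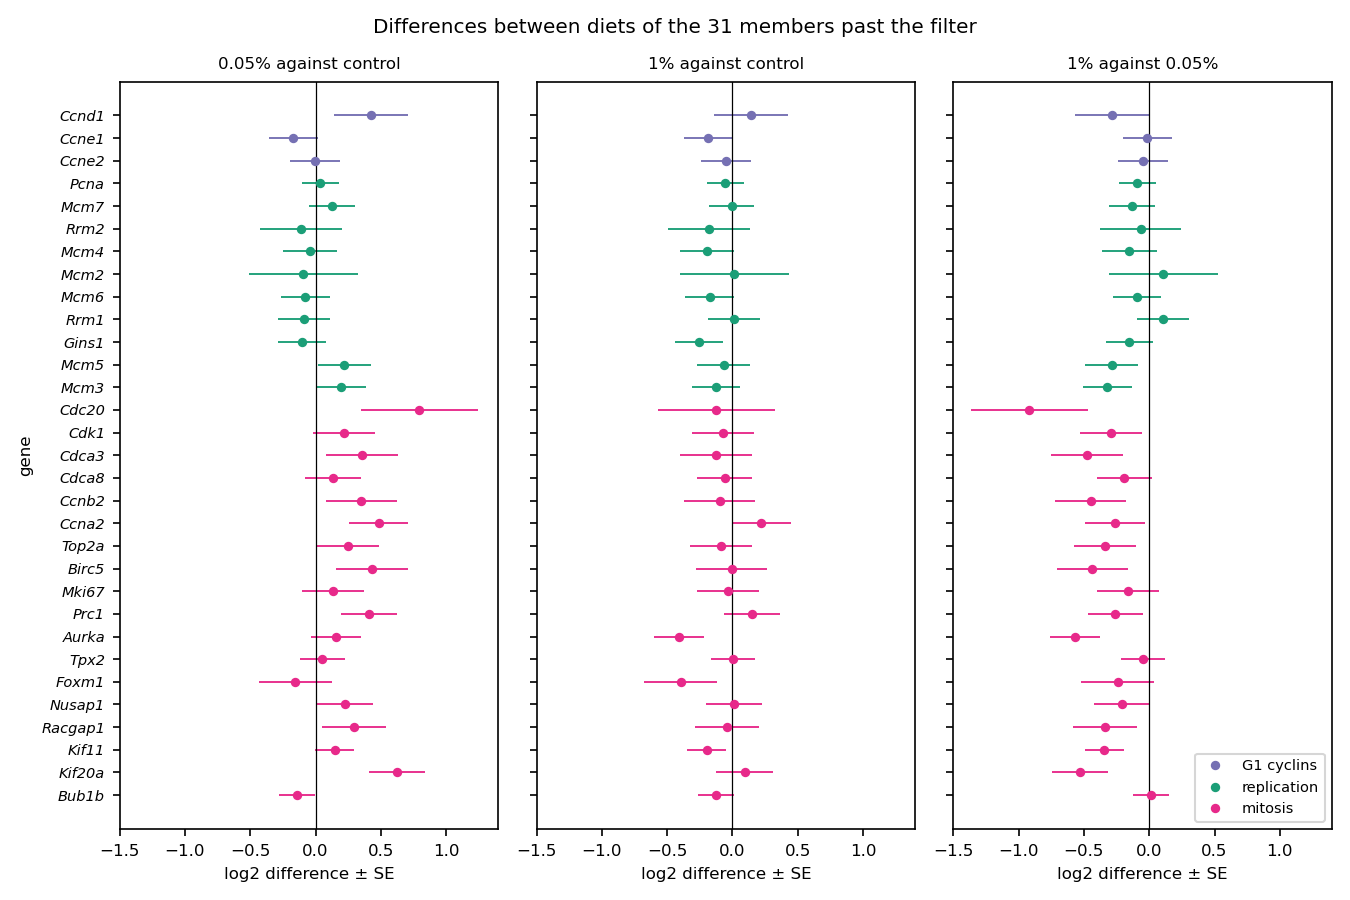
Points are log2 differences between diets with the standard error of the limma fit, for the 31 tested members in order of class, in 1 panel per comparison. Mitosis genes lie mostly right of 0 for 0.05% against control and left of 0 for 1% against 0.05%, replication genes lie near 0, and no difference passed at an adjusted p under 0.05.

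Among the genes of mitotic entry, Ccna2, the cyclin of S phase and G2, lay between 4.42 and 5.56 in controls (median 5.20), between 4.81 and 6.17 at 0.05% (median 5.59) and between 4.92 and 6.15 at 1% (median 5.20). For 0.05% against control the difference was 0.48 ± 0.23 (unadjusted p = 0.0465, adjusted p = 1.00), with 5 of 6 mice above the control mean and the ranges overlapping. Its other probe set gave 0.30. Cdk1, the kinase that drives mitosis, ranged from 5.41 to 6.16 in controls (median 5.84), from 5.17 to 6.61 at 0.05% (median 6.06) and from 4.99 to 6.66 at 1% (median 5.64). The lowest and the highest Cdk1 values of the 18 mice both came from the 1% diet. Ccnb2, a partner of Cdk1, measured 5.26 ± 0.39 in controls, 5.61 ± 0.55 at 0.05% and 5.17 ± 0.65 at 1% (SD, n = 6).

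Foxm1, the transcription factor that drives many genes of this class, did not vary with them on the chosen probe set. It ranged from 4.26 to 5.83 in controls (median 5.52), from 4.38 to 5.87 at 0.05% (median 4.98) and from 4.20 to 5.52 at 1% (median 4.69). The difference for 1% against control was -0.40 ± 0.28 (adjusted p = 0.941), with 4 of 6 mice below the control mean. Its mean over all mice, 5.02, was within the range of the silent genes, of which Gfap alone was higher. The other probe sets of Foxm1, all near background, gave -0.08, -0.02 and 0.07 for 1% against control. At such levels the array cannot show whether Foxm1 varied.

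Of the kinases and the chromosomal passenger complex, Aurka had the smallest p of any member in both comparisons of the 1% diet. This kinase matures the spindle poles. It lay between 4.90 and 5.41 in controls (median 5.12), between 4.82 and 5.89 at 0.05% (median 5.19) and between 4.26 and 5.41 at 1% (median 4.56). On the 1% diet all mice but replicates 3 and 4 were below the lowest mouse of the other diets. For 1% against control the difference was -0.41 ± 0.19 (unadjusted p = 0.0430, adjusted p = 0.889), and for 1% against 0.05% it was -0.57 ± 0.19 (unadjusted p = 0.00720, adjusted p = 0.782). In each, 5 of 6 mice lay below the mean of the other diet. Without 1% replicate 4 these differences were -0.55 and -0.71, and the second then had an adjusted p of 0.256, the lowest of any member under any setting. The mean of Aurka, 5.05, was also within the range of the silent genes, of which Gfap alone was higher.

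Birc5, or survivin, of the same complex, ranged from 4.42 to 5.50 in controls (median 5.06), from 4.70 to 6.09 at 0.05% (median 5.50) and from 4.20 to 6.06 at 1% (median 5.01). The difference for 0.05% against control was 0.43 ± 0.27 (adjusted p = 1.00), with 4 of 6 mice above the control mean. Cdca8, borealin, was even in controls, at 5.48 ± 0.07, and spread at 0.05% (5.61 ± 0.55) and 1% (5.42 ± 0.42; SD, n = 6).

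Cdc20, which activates the anaphase-promoting complex so that sister chromatids can part, had the widest range of the mitosis genes. It lay between 5.44 and 6.34 in controls (median 5.75), between 5.07 and 7.78 at 0.05% (median 6.69) and between 4.79 and 7.83 at 1% (median 5.36). In 0.05% replicate 4 and 0.05% replicate 6 it reached 7.78, and in 1% replicate 4 it reached 7.83. The next mouse, 0.05% replicate 5, stood at 7.06, and the other 5 mice on 1% were at 5.70 or below.

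The difference of Cdc20 was 0.79 ± 0.45 for 0.05% against control (adjusted p = 1.00, 4 of 6 mice above the control mean) and -0.92 ± 0.45 for 1% against 0.05% (adjusted p = 0.918, 5 of 6 mice below the 0.05% mean). Without 0.05% replicate 4 the second was -0.68, and without 1% replicate 4 it was -1.35. A second probe set for Cdc20 gave 0.54 and -0.75, and a further one, at 4.83 within the range of the silent genes, gave -0.03 and -0.05. Cdca3, a trigger of mitotic entry that marks Wee1 for breakdown, lay between 5.15 and 6.27 in controls (median 5.60), between 4.94 and 6.86 at 0.05% (median 5.83) and between 4.99 and 6.38 at 1% (median 5.38). Its difference between the doses was -0.48 ± 0.28 (adjusted p = 0.942, 5 of 6 mice below the 0.05% mean). It was -0.04 and 0.04 on the other probe sets of Cdca3.

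Of the spindle and cytokinesis genes, all 6 tested were higher at 0.05% than in controls and lower at 1% than at 0.05%, with 1 and 2 at an unadjusted p under 0.05. Of the 12885 genes tested, 45.5% were higher and 62.6% lower in the same order, with 184 and 467 at that level. After the median shift all 6 were higher at 0.05% than in controls, and 1 was higher and 5 lower at 1% than at 0.05%. The counts at that level were then 2 higher and 1 lower. Of all genes tested, 46.1% were higher and 49.8% lower after the shift, with 342 and 498 at that level. Kif20a, a kinesin of the central spindle, lay between 4.15 and 4.83 in controls (median 4.49), between 4.41 and 5.64 at 0.05% (median 5.07) and between 4.09 and 5.25 at 1% (median 4.45). It had the smallest p of any member for 0.05% against control, 0.62 ± 0.22 (unadjusted p = 0.00855, adjusted p = 1.00, 5 of 6 mice above the control mean). Between the doses it was -0.53 ± 0.22 (unadjusted p = 0.0224, adjusted p = 0.826, 5 of 6 mice below the 0.05% mean). After the median shift the difference at 0.05% was 0.63 ± 0.16, with an adjusted p of 0.596. The gene is near the filter, and all 6 controls lay below the brightest silent gene's mean of 5.11.

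Prc1 bundles the microtubules of the midzone. It lay between 4.50 and 5.35 in controls (median 4.91), between 4.85 and 5.91 at 0.05% (median 5.26) and between 4.80 and 6.13 at 1% (median 4.86). For 0.05% against control the difference was 0.41 ± 0.21 (adjusted p = 1.00, 5 of 6 mice above the control mean), with 0.15 on its other probe set. On the 1% diet, replicate 4 stood at 6.13 and the other 5 mice between 4.80 and 4.96.

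Kif11, the kinesin that pushes the spindle poles apart, was between 4.55 and 5.23 in controls (median 4.99), between 4.82 and 5.55 at 0.05% (median 5.00) and between 4.44 and 5.05 at 1% (median 4.72). Its difference was -0.20 ± 0.15 for 1% against control (adjusted p = 0.941, 5 of 6 mice below the control mean) and -0.34 ± 0.15 for 1% against 0.05% (unadjusted p = 0.0320, adjusted p = 0.873, 6 of 6 mice below the 0.05% mean, with overlap). After the median shift the difference between the doses was -0.30 ± 0.16 (unadjusted p = 0.0750). The other probe sets of Kif11, both near background, gave -0.06 and 0.13 between the doses. The mean of the chosen probe set, 4.91, was within the range of the silent genes. Nusap1, Tpx2 and Racgap1, which serve the spindle and the cleavage furrow, had ranges that overlapped in all 3 diets, and their means were also within that range.

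Top2a, the topoisomerase that untangles chromosomes, ranged from 4.98 to 5.50 in controls (median 5.24), from 4.75 to 6.19 at 0.05% (median 5.45) and from 4.62 to 6.31 at 1% (median 5.00). Mki67, the proliferation marker that coats mitotic chromosomes, ranged from 4.71 to 5.54 in controls (median 5.11), from 4.25 to 5.74 at 0.05% (median 5.36) and from 4.63 to 5.95 at 1% (median 4.99). In both genes the 1% diet held the highest mouse, replicate 4, and its median was the lowest of the 3. The mice of the 3 diets overlapped in both.

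**Figure D3:**
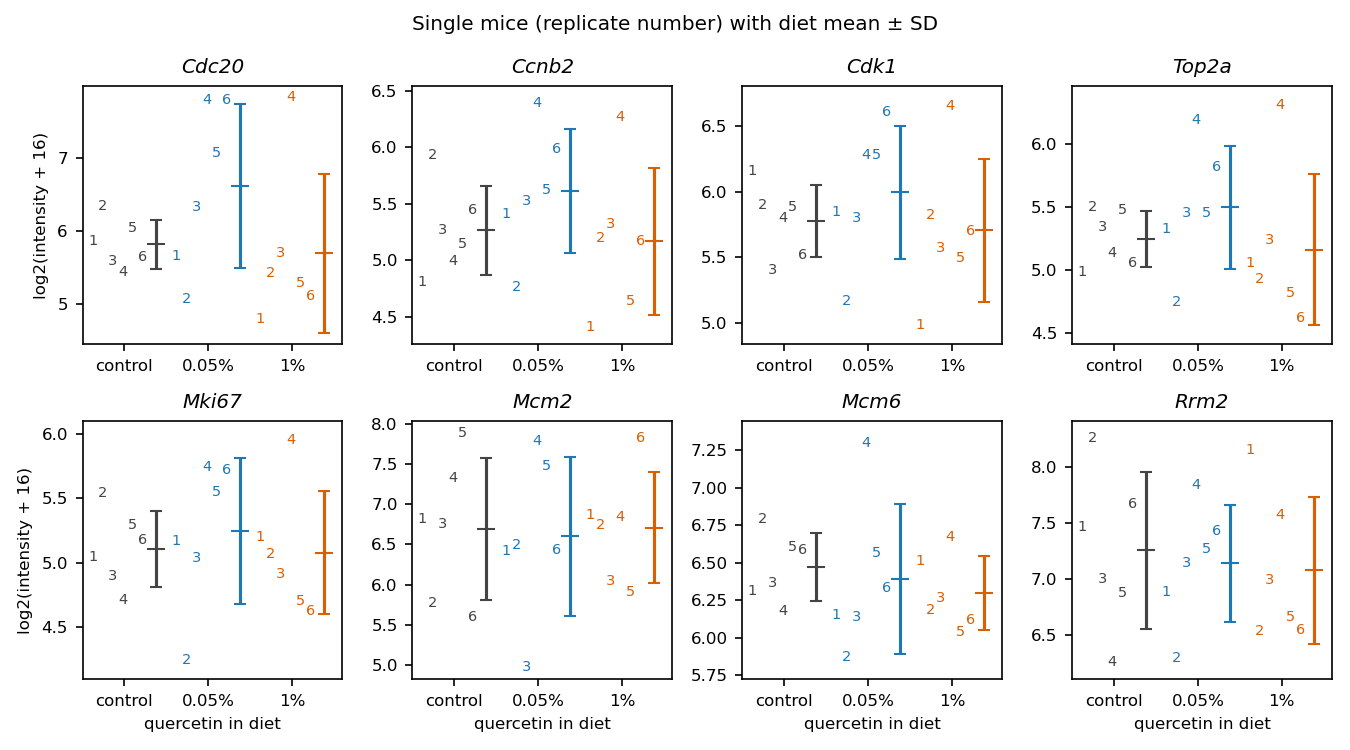
Each digit is the replicate number of a mouse at its level, log2(intensity + 16) as deposited, with the diet mean and SD (n = 6) beside it, for 5 mitosis genes and 3 replication genes, each on an axis of its own. In Cdc20, Ccnb2, Top2a and Mki67 the top 3 mice are 0.05% replicate 4, 0.05% replicate 6 and 1% replicate 4, whereas control replicate 5 leads in Mcm2 and control replicate 2 in Rrm2.

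The mitosis genes were highest on average in single mice of both quercetin diets. On the 0.05% diet, replicates 4, 6, 5 and 3 ranked 1, 3, 4 and 6 of the 18 mice. Whether diet or single mice set these genes apart was not tested. The mean of the 18 tested mitosis genes was 5.97 in 0.05% replicate 4, 5.91 in 1% replicate 4 and 5.86 in 0.05% replicate 6, and the next mouse, 0.05% replicate 5, stood at 5.45. The diet means of this value were 5.15 ± 0.14 in controls, 5.41 ± 0.45 at 0.05% and 5.07 ± 0.44 at 1% (SD, n = 6). Each of the 18 mitosis genes had its highest level in one of these 3 mice: 11 in 0.05% replicate 4, 6 in 1% replicate 4 and 1 in 0.05% replicate 6. These mice were picked by the mean of the same genes, so the counts largely follow from that choice. How many of all genes tested were highest in these mice was not counted. In whole liver, more cells in division and more RNA per dividing cell cannot be told apart.

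The arrays of these mice were among the brightest. Their medians were 7.21, 7.24 and 7.17 for 0.05% replicate 4, 1% replicate 4 and 0.05% replicate 6, ranks 2, 1 and 4 of 18, and control replicate 6 ranked 3 at 7.20 with a mitosis mean of 5.15. Over the 18 mice the mitosis mean as deposited correlated with the array median at r = 0.80, and after the median shift at r = 0.54. The part of array brightness in the mitosis values was not tested beyond that shift. After it the same 3 mice still stood highest, at 5.74, 5.65 and 5.68, with control replicate 2 next at 5.42. Of the 18 mitosis genes, which make up that mean, 14 were highest in one of these 3 mice (7, 3 and 4).

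After the shift, replication genes ranked the mice in another way. Their mean was also highest in 0.05% replicate 4, at 7.40, and 6 of the 10 replication genes, which make up that mean, had their highest value there. The other mice with high mitosis means were in the middle for replication: 0.05% replicate 6 ranked 11 of 18, at 6.79, and 1% replicate 4 ranked 8, at 6.89. That holds only after the shift: as deposited, with array brightness in the values, they ranked 5 (6.97) and 3 (7.15). Conversely, 0.05% replicate 3 had the lowest replication mean, 6.59, and ranked 5 for mitosis. That low mean leans on Mcm2, which had its lowest value of the 18 mice there (5.11, against up to 7.80 in other mice).

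Across mice the mitosis and replication means correlated at r = 0.42 (Spearman 0.32, n = 18) after the shift, and at r = 0.17 without the 2 mice farthest from the median of the mitosis mean. Within diets r was 0.58 in controls, 0.57 at 0.05% and 0.15 at 1% (n = 6 each). As deposited, with array brightness in both means, r was 0.74. The mitosis mean minus the replication mean, in which a shift common to all genes of an array cancels, was -1.75 ± 0.13 in controls, -1.5 ± 0.27 at 0.05% and -1.72 ± 0.29 at 1% (SD, n = 6). On this measure 0.05% replicate 6 (-1.12), 0.05% replicate 3 (-1.20) and 1% replicate 4 (-1.24) were the highest, and 0.05% replicate 4, high in both classes, was at -1.65. The value of 0.05% replicate 3 also leans on its low Mcm2. The controls lay between -1.87 and -1.53, inside the range of the mice on 1%.

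**Figure D4:**
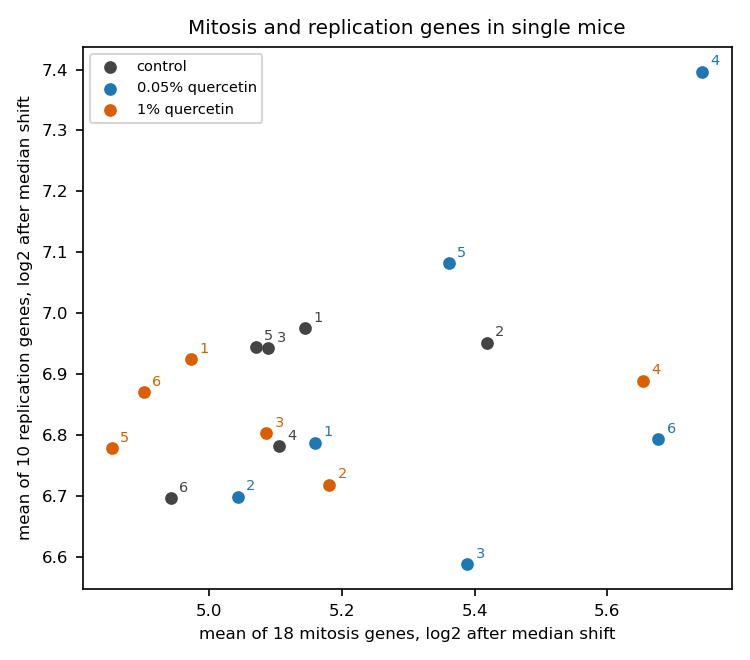
Each dot is 1 mouse, labelled with its replicate number and coloured by diet, with the mean of 18 mitosis genes on the x axis and of 10 replication genes on the y axis, both in log2 after the median shift. The 3 mice at the right (5.65 to 5.74) differ in replication: 0.05% replicate 4 is alone at 7.40, while 1% replicate 4 and 0.05% replicate 6 sit at 6.89 and 6.79.

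Most of the mitosis genes followed one another from mouse to mouse. For each gene, r was taken over the 18 mice between its level after the shift and the mean of the other mitosis genes. It was over 0.7 in 13 of 18, or 72.2%, led by Cdc20 (0.93), Cdca3 (0.86), Ccnb2 (0.86), Birc5 (0.86), Top2a (0.84) and Cdca8 (0.84). None of the 10 replication genes reached that value, and the highest were Mcm5 (0.59) and Mcm7 (0.58). Of the other 12854 genes tested, 36 exceeded it (0.28%), with a median of -0.03. All these values share the arrays, and r over mice is a description.

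Taken within diets, r was 0.91 for Cdc20, 0.83 for Ccnb2, 0.85 for Cdca8 and 0.82 for Top2a. The mitosis genes that did not follow were Foxm1 (-0.03), Bub1b (-0.08), Kif11 (0.02) and Tpx2 (0.11), and Racgap1 was between, at 0.60. Each of these probe sets had a mean within the range of the silent genes, as did Aurka (5.05), Nusap1 (4.97) and Kif20a (4.72), which followed with an r of 0.73, 0.77 and 0.78. For Tpx2 the other probe sets past the filter gave 0.59 and 0.33. The other probe sets of Cdc20 past the filter gave 0.90 and -0.15, and those of Ccna2, Prc1 and Cdca8 gave 0.82, 0.62 and 0.59, while those of Cdca3 gave -0.48 and 0.04. Other probe sets near background gave 0.31 for Cdca8, -0.61 and -0.32 for Top2a, -0.35 for Aurka and -0.08 for Nusap1. Ccnd1 (0.41), Ccne2 (-0.17) and Ccne1 (-0.41) were not among the genes that followed.

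**Figure D5:**
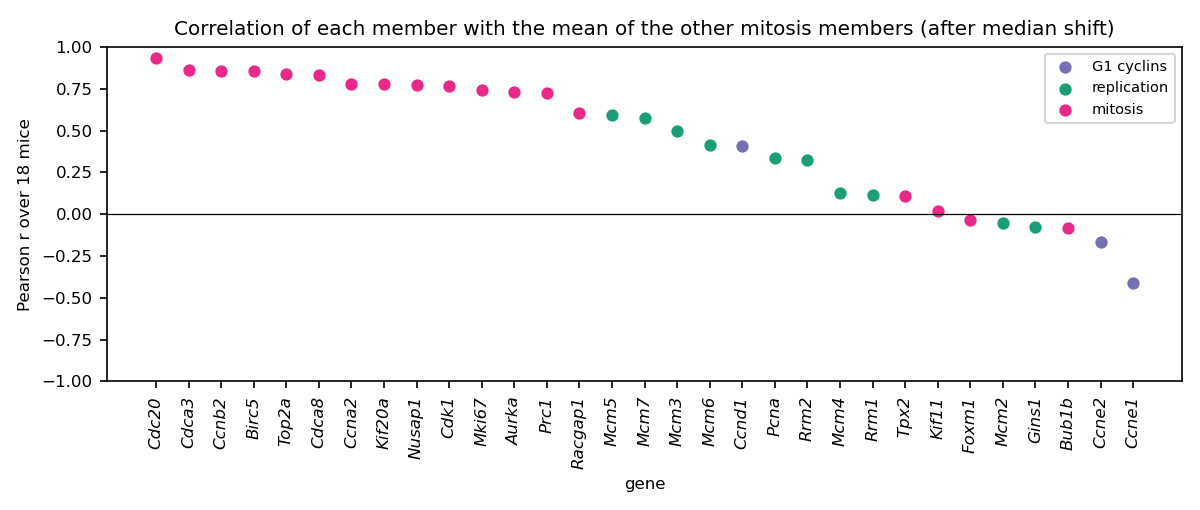
Each dot is a tested member, and the y axis is Pearson r over 18 mice between its level and the mean of the other mitosis genes (for a mitosis gene, those other than itself), after the median shift. Mitosis genes fill the left end, from Cdc20 at 0.93 to Racgap1 at 0.60, and the replication genes follow, from Mcm5 at 0.59 downward.

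The genes outside the list whose pattern was most like the mitosis mean were Pbk (r = 0.90), a kinase, Ckap2 (0.89), a microtubule protein, Ube2c (0.89), the ubiquitin carrier of the anaphase-promoting complex, Herc3 (0.87), and Nuf2 (0.86), a kinetochore protein. They were ranked among 12854 genes over 18 mice. Pbk was 5.72 or below in each mouse other than control replicate 2 (6.10), 0.05% replicate 1 (5.90) and the 3 mice with the highest mitosis means (6.55, 6.02 and 6.43) on values after the shift. Since Pbk was chosen by its likeness to the mitosis mean, high values in those 3 mice follow from the choice.

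A list of 52 symbols of other mitosis genes, a few of them older names, held components of the kinetochore, the spindle and cytokinesis, among them Pbk, Ckap2, Ube2c and Nuf2. Of its 39 tested genes, 10 (25.6%) had an r over 0.7 with the mitosis members, with a median of 0.59. For 0.05% against control 35 were higher and 4 lower (median 0.15), with 1 at an unadjusted p under 0.05. Between the doses, 1% against 0.05%, 2 were higher and 37 lower (median -0.19), with 5 at that level, and for 1% against control 15 were higher and 24 lower (median -0.05). Of all genes tested, 54.5%, 62.6% and 64.8% were lower in the same order. After the median shift the counts were 35 and 4, 2 and 37, and 21 and 18. None passed.

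Anln, anillin of the cleavage furrow, lay between 4.33 and 4.85 in controls (median 4.63), between 4.73 and 5.82 at 0.05% (median 5.12) and between 4.11 and 5.66 at 1% (median 4.29). Its difference was 0.56 ± 0.23 for 0.05% against control (adjusted p = 1.00, 6 of 6 mice above the control mean, with overlap). Kif2c, a kinesin that takes microtubules apart at the kinetochore, was between 4.99 and 5.62 in controls (median 5.35), between 4.97 and 5.42 at 0.05% (median 5.31) and between 4.24 and 5.31 at 1% (median 4.81), with a difference for 1% against control of -0.55 ± 0.18 (adjusted p = 0.748). The groups overlapped in both genes. Iqgap3 (0.30 ± 0.16 for 0.05% against control) and Kif4 (-0.38 ± 0.22 for 1% against control) completed the genes of smallest p.

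Other replication genes numbered 36 tested of 40. They were 22 higher and 14 lower at 0.05% than in controls (median 0.04), 9 and 27 at 1% than in controls (median -0.09), and 9 and 27 between the doses (median -0.16). Of all genes tested, 54.5%, 64.8% and 62.6% were lower in the same order. After the median shift the counts were 23 and 13, 14 and 22, and 10 and 26. None had an r over 0.7 with the mitosis members (median 0.28). Cdc45, which forms the helicase with MCM and GINS, had a difference of -0.33 ± 0.15 for 1% against control (adjusted p = 0.867) and the same against 0.05%. Rpa1, which coats single-stranded DNA, had -0.35 ± 0.17 for 1% against control. Between the doses Gmnn, the inhibitor of Cdt1, had -0.53 ± 0.25. Cdt1, a licensing factor, and Orc1, of the origin complex, had 0.47 ± 0.25 and 0.44 ± 0.28 for 0.05% against control. None of these genes passed.

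Among 18 tested of 19 other cyclins, CDKs and CDC25 phosphatases, 5 were higher and 13 lower for 1% against control (median -0.08), 8 and 10 at 0.05% against control (median -0.03), and 4 and 14 between the doses (median -0.06). Of all genes tested, 64.8%, 54.5% and 62.6% were lower in the same order. After the median shift the counts were 8 and 10 in each comparison. Cks1b, a small subunit of CDK complexes, lay between 8.63 and 9.81 in controls (median 9.12), between 8.17 and 9.67 at 0.05% (median 8.67) and between 7.38 and 8.81 at 1% (median 8.43). Its difference for 1% against control was -0.75 ± 0.25 (adjusted p = 0.743, 6 of 6 mice below the control mean). Ccnf, cyclin F, had -0.37 ± 0.17 for 1% against control and -0.33 ± 0.17 against 0.05%. Ccnd3, cyclin D3, had -0.33 ± 0.12 for 0.05% against control and 0.22 ± 0.12 for 1% against 0.05%, and Cdc25a had 0.38 ± 0.20 for 0.05% against control. None of them passed.

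CDK inhibitors and pocket proteins, 9 tested of 10, had a median of 0.01 at 1% against control, 0.01 at 0.05% against control and -0.02 between the doses. Cdkn1a, the p21 inhibitor, lay between 6.07 and 8.20 in controls (median 7.54), between 6.78 and 7.52 at 0.05% (median 7.33) and between 6.99 and 9.71 at 1% (median 7.56). Its difference for 1% against control was 0.48 ± 0.37 (adjusted p = 0.941), and its highest value, in 1% replicate 1, stood alone. Cdkn1b, the p27 inhibitor, had -0.25 ± 0.20 for 1% against 0.05%, Cdkn2d -0.16 ± 0.20 for 1% against control, and Cdkn1c -0.12 ± 0.17 for 0.05% against control. Rb1, the retinoblastoma protein, differed by -0.04 ± 0.18 for 1% against control and by -0.01 ± 0.18 for 0.05% against control.

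The E2F, DREAM and MYB factors, 17 tested of 17, were 4 higher and 13 lower at 1% than in controls, 4 and 13 at 0.05%, and 9 and 8 at 1% against 0.05%. Of all genes tested, 64.8%, 54.5% and 62.6% were lower in the same order. After the median shift the counts were 8 and 9, 4 and 13, and 12 and 5. E2f1 measured 5.64 ± 0.15, 5.57 ± 0.28 and 5.57 ± 0.19 in control, 0.05% and 1% mice (SD, n = 6). E2f8, a repressor of E2F targets, varied widely, from 4.91 to 8.25 in controls (median 6.68), from 5.37 to 6.92 at 0.05% (median 5.70) and from 5.42 to 8.67 at 1% (median 7.58). For 1% against 0.05% its difference was 1.56 ± 0.54 (adjusted p = 0.782, 5 of 6 mice above the 0.05% mean), and the diets overlapped. E2f7, its close relative, had -0.33 ± 0.18 for 0.05% against control (adjusted p = 1.00).

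Myc, a driver of cell growth and entry into the cycle, lay between 5.46 and 6.74 in controls (median 6.22), between 5.40 and 6.11 at 0.05% (median 5.69) and between 5.79 and 8.96 at 1% (median 6.59). Its difference was 0.86 ± 0.38 for 1% against control (adjusted p = 0.867) and 1.24 ± 0.38 for 1% against 0.05% (adjusted p = 0.723). The highest Myc value came from 1% replicate 1, the mouse that was also highest in Cdkn1a.

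Of the p53 and growth arrest genes, 13 tested of 15, medians were -0.18 at 1% against control, 0.01 at 0.05% against control and -0.02 between the doses. Trp53 itself had no probe set with that symbol alone in the annotation used. Plk3, a stress-induced kinase, lay between 8.05 and 9.50 in controls (median 8.80), between 6.96 and 8.58 at 0.05% (median 7.33) and between 7.96 and 9.58 at 1% (median 8.50). Its differences were -1.29 ± 0.29 for 0.05% against control (adjusted p = 0.564) and 1.12 ± 0.29 for 1% against 0.05% (adjusted p = 0.556), in 6 of 6 mice each, with overlap. Gadd45b, a stress and growth arrest gene, was higher than in controls at both doses, by 1.24 ± 0.38 at 1% (adjusted p = 0.666) and 0.99 ± 0.38 at 0.05% (adjusted p = 1.00), comparisons that share the controls. Btg2, an antiproliferative gene, had -0.70 ± 0.24 for 1% against control (adjusted p = 0.768), and Plk2 had -0.70 ± 0.25 for 1% against 0.05% (adjusted p = 0.794). None of these passed.

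Markers of other cells in the tissue were set beside the mitosis mean, after the shift, over the 18 mice. Neutrophil markers, 6 of 10 past the filter, had means of 5.66 to 8.30 in controls, 5.37 to 7.09 at 0.05% and 6.12 to 7.84 at 1%, and r with the mitosis mean was -0.55. As deposited, 0 of the 6 were higher and 6 lower for 0.05% against control (median -0.83), with 4 at an unadjusted p under 0.05. Between the doses all 6 were higher (median 0.64), with 2 at that level, and 0 passed in either. Of all genes tested, 54.5% were lower and 37.4% higher in the same order. After the shift the directions were the same, with medians of -0.83 and 0.69 and with 3 and 2 at that level. Camp, Ltf and Cxcr2 of that list were near background. Sinusoidal endothelial markers, 12 of 12 past the filter, had means of 7.07 to 7.33 in controls, 7.27 to 7.47 at 0.05% and 7.07 to 7.39 at 1%, and r was 0.46. As deposited, 11 of these 12 were higher and 1 lower for 0.05% against control (median 0.18), where 45.5% of all genes tested were higher. For 1% against 0.05% all 12 were lower as deposited (median -0.19), where 62.6% of all genes were lower. After the shift 2 were higher and 10 lower between the doses (median -0.14), where 49.8% of all genes were lower. For 0.05% against control the counts after it were again 11 and 1 (median 0.18), and 0 passed in either.

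Kupffer cell and macrophage markers, 11 of 12 past the filter, had r = -0.38 with means of 8.40 to 9.26 in controls, 8.41 to 8.99 at 0.05% and 8.39 to 9.05 at 1%. For stellate cells and fibroblasts, 10 of 10, r was 0.31, with means of 7.32 to 7.63, 7.34 to 7.76 and 7.19 to 7.56 in the same order. Hepatocyte markers had r = -0.32, with means of 12.50 to 12.70, 12.32 to 12.76 and 12.17 to 12.52. As deposited, 0 of 13 were higher and 13 lower for 1% against control (median -0.15), where 64.8% of all genes tested were lower. After the shift 2 were higher and 11 lower (median -0.10), where 51.7% of all genes were lower. For 0.05% against control 1 was higher and 12 lower either way, and 0 passed. Cholangiocyte and progenitor markers, 5 of 8 with Cftr and Muc1 near background, had r = -0.37. Blood can also bring cycling precursors to the tissue. Myeloid progenitor markers, 5 of 6 past the filter with Ctsg near background, had means of 4.86 to 6.15 over all mice and r = -0.36. Erythroid markers, 6 of 12, had means of 6.45 to 7.11 and r = 0.18. For T and NK lymphocytes (6 of 13, with Cd3e and Cd4 near background) r was -0.01, and for B lymphocytes (4 of 8, with Cd79a near background) it was 0.00. The part of these cells in the mitosis values was not tested.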

How the data were processed

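Affymetrix 3-prime arrays of 18 mouse livers were read from the series' value table. The deposited values are linear signal intensity per probe set, and, per the labels' protocols, each array holds biotin-labelled RNA of 1 mouse. For the signal software, the scaling and the genome build, the sources used here state nothing. Of 45101 probe sets, 64 are controls, 34945 carry 1 gene symbol, 932 several and 9160 none. By Entrez number 34741 were matched to RefSeq of GRCm38.p6, which changed 0 symbols. log2(intensity + 16) was taken as deposited, and genes above the 40th percentile (4.69) were tested. limma 3.58.1 under R 4.3.3 (lmFit, eBayes) fitted 3 diet means to 18 arrays, two-sided, with Benjamini-Hochberg adjustment over 12885 genes at 0.05. There were 15 residual degrees of freedom, and the median SE was 0.16. Precision is limited by how many arrays there are. The script was checked on simulated data.

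The members and all lists were chosen with earlier results of these data known. Values per mouse are given for 9 preset members and for the 5 with the smallest p in each comparison. The 2 genes with the smallest p in each further list, 7 preset regulators and the 5 genes most like the mitosis mean were named too. Ranges of other members, and values named for a single mouse or a second probe set, were chosen after they were seen. Alternatives were a median shift, quantile normalization, no filter or the 60th percentile, 1 in place of 16, averaged probe sets, trend and robust eBayes, a fit to the 12 arrays of a pair of diets, a block on replicate number, and leaving out each array. Arrays were compared and 0 pairs were identical.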

Additional observations from a re-analysis of the deposited data

Results flagged for a closer look

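In each diet of 6 mice, the highest or lowest mouse was compared with the others by Dixon's ratio, the gap to the nearest mouse over the whole range. Of 102 groups examined, 5 exceeded its critical value, and chance alone gives about 1 in 20, or 5.1. On the 1% diet, replicate 4 lay above its 5 fellows in Cdc20, the activator of the anaphase-promoting complex (7.83, others 4.79 to 5.70), in Prc1, the bundler of midzone microtubules (6.13, others 4.80 to 4.96), in Top2a (6.31, others 4.62 to 5.24) and in the mean of the mitosis members (5.91, others 4.71 to 5.13). The 3 genes are part of that mean and were read on 1 array, the brightest of the 18, so the flags are not independent of each other. On the same diet, replicate 1 lay below the others in Mcm4, a subunit of the replicative helicase (5.93, others 6.57 to 6.88), on an array whose median ranked 17 of 18.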

How the results depend on the processing

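None of 2556 member tests over 28 settings passed at an adjusted p under 0.05 in limma, and the lowest adjusted p was 0.256, for Aurka without 1% replicate 4. The 15 differences of members named by their p kept their sign in each alternative that tested them. Aurka, Foxm1 and Kif11 did not enter the test at the 60th percentile or with the mean of probe sets, Kif20a at the 60th percentile or with 1 in place of 16, and Ccna2, Prc1 and Birc5 at the 60th percentile. Genes called over the whole array, none of them members, numbered 1 for 1% against control under the median shift and under quantile normalization, against 0 as deposited. For 1% against 0.05% they were 1 at the 60th percentile, 2 with trend and robust eBayes and 7 with only the 12 arrays. Leaving out 1 array gave 0 to 1 for 1% against control (1 without control replicate 3 or 1% replicate 6), 0 to 1 for 0.05% against control (1 without 0.05% replicate 1) and 0 to 2 for 1% against 0.05% (2 without 1% replicate 5, 1 without control replicate 1, 0.05% replicate 1 or 1% replicate 1). With replicate number as a block 1 gene was called for 1% against control. Same-numbered mice did not deviate together over the tested genes (median r -0.01 over 18 pairs, 3 over 0.1), and 3 of 18 arrays correlated best with their own number. Such a check cannot exclude a pairing of small effect, and the labels used state none. The members' median lay between -0.17 and -0.02, 0.04 and 0.18, and -0.34 and -0.15 over the alternatives for 1% against control, 0.05% against control and 1% against 0.05%, and between -0.20 and -0.02, 0.04 and 0.27, and -0.35 and -0.08 with 1 array left out. The difference of mitosis minus replication was 0.03 as deposited, 0.01 with quantile normalization and -0.08 with 1 in place of 16 for 1% against control. In the same order of comparisons it lay between -0.08 and 0.06, 0.23 and 0.45, and -0.45 and -0.20 over the alternatives, and between -0.07 and 0.08, 0.18 and 0.30, and -0.32 and -0.15 with 1 array left out. Signal near the background limits what can be said of most mitosis genes.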
